A study of Homo sapiens with 20 samples.

Results

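Receptor tyrosine kinases are membrane proteins that bind a ligand outside the cell and phosphorylate themselves and other proteins inside it. The 10 described here, EGFR, ERBB2, ERBB3, MET, AXL, FGFR1, FGFR2, IGF1R, INSR and DDR1, were chosen by symbol as receptors known from ovarian carcinoma. All 10 were found among the 24196 genes of the expression table. Of these, 9 entered the test over 12486 genes with a mean of at least 0.5 FPKM, and FGFR2 lay below that minimum. FPKM is the number of sequenced fragments scaled to transcript length and library size, so that levels of different genes can be set side by side within a library.

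The tumors grew from OVCAR8, an established human high-grade serous ovarian carcinoma line, which for this experiment carried a control guide RNA and luciferase (sgNC-luc) per the study, placed orthotopically in the ovarian fat pad of NSG mice. These immunodeficient mice lack T, B and NK cells but keep their own fibroblasts, vessels and macrophages. One group of 4 tumors received PBS (C1 to C4 in the table) and the other group of 4 received sodium gluconate by weekly intraperitoneal injection (T1 to T4). The letters were read as PBS and gluconate because the study plots gluconate against PBS as log2(T/C), and because among the groups in the labels only these hold 4 libraries each. The 12 other libraries, of knockout and sgNC samples, were not analysed here. Treated cells are named in the study's text and tumors in the labels. The study counts mice in this experiment, but the labels do not tie each library to a mouse, so p-values measure the spread between these samples. How mouse reads were handled, the aligner and the strand setting were not given in the sources used here. In bulk tissue, fewer cells of a type and less RNA per cell cannot be told apart.

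In many of these receptors, though not all, ligand binding brings them together in pairs. The phosphorylated tails recruit adaptors that start the RAS, MAPK and PI3K cascades. ERBB3 has little kinase activity of its own and signals with partners such as ERBB2, while AXL binds GAS6, MET binds HGF, and DDR1 is activated by collagen. In ovarian carcinoma, AXL and MET are known for their part in invasion, and ERBB receptors and the insulin and IGF receptors for growth and survival signals.

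PBS replicate 4 stood apart from the other 7 libraries before any comparison. It held 3953206 fragments, while the others held 39325749 to 46551535, which is 9.95 to 11.8 times as many. It listed 15514 genes above 0, against 19991 to 20251 in the others. Its Pearson correlation with the other libraries, across genes on the log2(FPKM + 0.1) scale, was 0.938 to 0.951, and the lowest value among the other pairs was 0.980. These correlations only describe the libraries, since genes are no independent replicates. Counts and fold changes are given with and without PBS replicate 4 where it changes them, and intervals on single libraries cover counting error only.

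AXL, the receptor for GAS6, had the highest level of the 10. It measured 192, 214, 185 and 175 FPKM in PBS replicates 1 to 4 and 192, 187, 207 and 179 FPKM in gluconate replicates 1 to 4. The groups overlapped over nearly their whole range. The mean over 8 libraries was 191 FPKM, above that of 97.8% of the genes tested. AXL supplied 61.1% to 65.0% of the summed FPKM of the 10 receptors in every library.

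FGFR1, a receptor for fibroblast growth factors, followed with a mean of 43.8 FPKM. Its level was 44.0, 43.8, 35.7 and 53.5 FPKM in PBS replicates 1 to 4 and 41.4, 43.8, 44.8 and 43.5 FPKM in the gluconate tumors. PBS replicate 3 was the lowest and PBS replicate 4 the highest of the 8. EGFR, the founding member of the ERBB family, had a mean of 21.7 FPKM, with 20.5, 24.4, 24.0 and 21.9 FPKM in PBS tumors and 21.3, 21.0, 20.1 and 20.4 FPKM in gluconate tumors. PBS replicates 2, 3 and 4 lay above all gluconate tumors and PBS replicate 1 lay among them. AXL, FGFR1 and EGFR together made up 83.0% to 87.4% of the summed receptor FPKM.

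MET, the receptor for hepatocyte growth factor, ranged from 11.8 FPKM in PBS replicate 4 to 16.0 FPKM in PBS replicate 1, with a mean of 14.7 FPKM. ERBB2, which has no known ligand and pairs with other ERBB receptors, ranged from 8.80 FPKM in PBS replicate 4 to 14.7 FPKM in gluconate replicate 4, with a mean of 12.4 FPKM. DDR1, a collagen receptor, had a mean of 6.83 FPKM, between 5.82 FPKM in PBS replicate 4 and 7.56 FPKM in gluconate replicate 4. PBS replicate 4 was the lowest library for these 3 receptors. IGF1R, the receptor for insulin-like growth factors, had a mean of 4.20 FPKM, from 2.55 FPKM in PBS replicate 4 to 5.91 FPKM in PBS replicate 3.

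**Figure D1:**
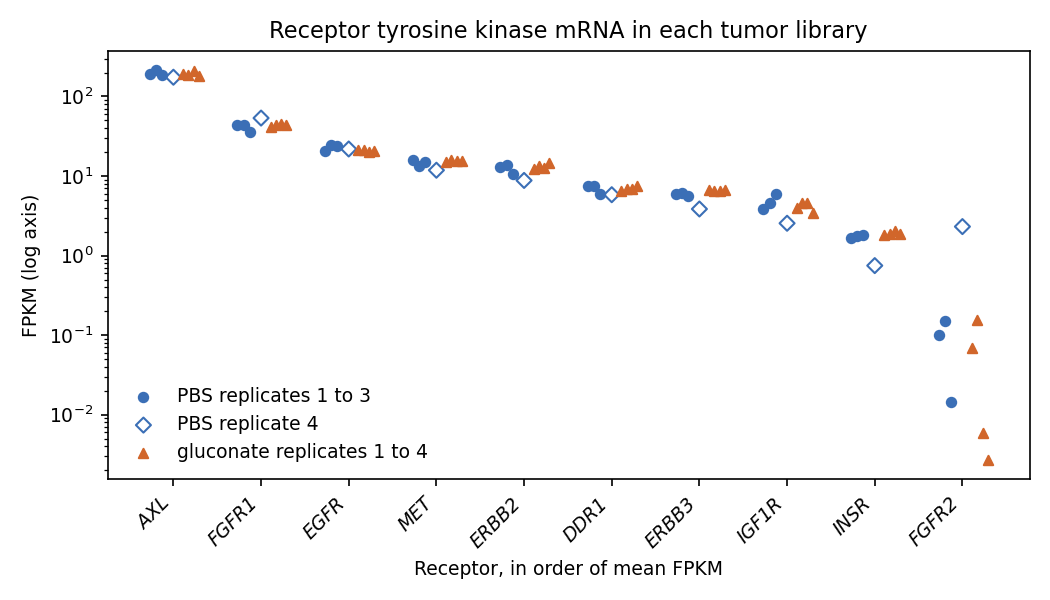
FPKM (log axis) of the 10 receptors in each of the 8 libraries, ordered by mean, with circles for PBS replicates 1 to 3, open diamonds for PBS replicate 4 and triangles for the gluconate tumors. AXL lies highest at 175 to 214 FPKM, and for FGFR2 the open diamond at 2.31 FPKM lies far above the other libraries.

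ERBB3, the ERBB member that signals through its partners, was higher in every gluconate tumor than in every PBS tumor. It measured 5.93, 6.05, 5.61 and 3.85 FPKM in PBS replicates 1 to 4 and 6.65, 6.40, 6.49 and 6.68 FPKM in gluconate replicates 1 to 4. PBS replicate 4 rested on 93 fragments, with a 95% Poisson interval of 3.11 to 4.72 FPKM, and lay below the other libraries. Without it, PBS tumors had a mean of 5.86 ± 0.229 FPKM (SD, n = 3), and for gluconate tumors the mean was 6.55 ± 0.131 FPKM (SD, n = 4). The log2 fold change on the FPKM + 0.1 scale was 0.31 (SE 0.14, 95% interval -0.02 to 0.63) over 8 libraries, with an adjusted p of 0.740 from limma. Without PBS replicate 4 it was 0.16 (SE 0.07, 95% interval 0.0012 to 0.32), with an adjusted p of 0.802 from limma. The two-sided exact permutation test gave p = 0.0286 with and without that library, the smallest value that either design can give.

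INSR, the insulin receptor, was the other receptor whose groups did not overlap. It measured 1.66, 1.75, 1.79 and 0.748 FPKM in PBS replicates 1 to 4 and 1.81, 1.84, 2.04 and 1.89 FPKM in the gluconate tumors. The gap between PBS replicate 3 and gluconate replicate 1 was small, and their 95% Poisson intervals, 1.66 to 1.93 and 1.68 to 1.95 FPKM, overlapped. PBS replicate 4 held 28 fragments of INSR, with an interval of 0.497 to 1.08 FPKM. The log2 fold change was 0.40 (SE 0.25, 95% interval -0.17 to 0.97) over 8 libraries, with an adjusted p of 0.740 from limma. Without PBS replicate 4 it was 0.12 (SE 0.10, 95% interval -0.11 to 0.35), with an adjusted p of 0.833 from limma. The exact permutation test gave p = 0.0286 over 8 libraries and p = 0.0571 without PBS replicate 4.

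The promoter of INSR is shown because INSR is a receptor whose groups did not overlap and whose difference shrank without 1 library. INSR spans chr19:7112255-7294034 on the minus strand in GENCODE 29 (GRCh38). The 250 bases before its start in RefSeq (GRCh38.p14) lie at chr19:7294415-7294664 on the minus strand. Capitals mark matches to GGGCGG, searched on both strands, with CCGCCC as its form on the other strand.
INSR: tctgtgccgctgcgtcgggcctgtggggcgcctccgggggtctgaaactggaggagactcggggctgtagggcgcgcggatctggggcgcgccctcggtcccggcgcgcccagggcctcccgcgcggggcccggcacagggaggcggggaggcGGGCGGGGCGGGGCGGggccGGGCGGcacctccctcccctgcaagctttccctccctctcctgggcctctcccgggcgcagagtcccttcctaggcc
The window held 4 matches on the strand shown and 0 on the other, and 3 of them share bases. Of 35116 promoters of the same length, 42.6% held the motif, as did 7 of the 8 receptors with an entry. ERBB3 and FGFR1 had no entry. A match describes the letters and not a binding site.

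FGFR2, like FGFR1 a receptor for fibroblast growth factors, was near 0 in 7 libraries and not in PBS replicate 4. It measured 0.102, 0.149, 0.0145 and 2.31 FPKM in PBS replicates 1 to 4 and 0.0689, 0.157, 0.00589 and 0.00271 FPKM in gluconate replicates 1 to 4. These values rest on 1 to 60 fragments in 7 libraries and on 79 fragments in PBS replicate 4, whose 95% Poisson interval was 1.83 to 2.88 FPKM. The difference of gluconate from PBS tumors was -1.22 on the log2(FPKM + 0.1) scale with an exact permutation p of 0.257. Without PBS replicate 4 it was -0.28 with an exact permutation p of 0.543.

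Over the 9 receptors tested, 0 had an adjusted p under 0.05 by limma, as did 0 of all 12486 genes (0%), with and without PBS replicate 4 (0%). At an unadjusted p under 0.05, 0 receptors were counted over 8 libraries, where 4.62% of all genes were (3.13% higher and 1.49% lower in gluconate tumors). Without PBS replicate 4, 1 receptor, ERBB3, was counted, where 6.18% of all genes were (2.83% higher and 3.36% lower). None of the 9 combined an unadjusted p under 0.05 with a change of 1 or more in size on the log2 scale, a rule met by 0.296% of all genes, and by 0.0881% without PBS replicate 4. Over the same 8 libraries, 0 receptors reached an unadjusted p under 0.05 by limma voom on recovered fragments and by an unmoderated linear model. Scaling by median ratios gave 2 (EGFR and ERBB3), where 708 of all 12486 genes were counted. Quantile normalization gave 1 (ERBB3), where 783 of 12486 were. The lowest adjusted p over all genes was 0.740, and 0.802 without PBS replicate 4.

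Groups that did not overlap were found for 2 of the 9 receptors, both higher in gluconate tumors, against 3.49% of all genes tested (2.08% higher and 1.41% lower). Without PBS replicate 4 the same 2 were counted, against 6.06% of all genes (2.41% higher and 3.65% lower). The median log2 fold change of the 9 receptors was 0.07 and that of all genes tested also 0.07. Without PBS replicate 4 these medians were 0.05 and -0.0033. Positive values were found for 7 of the 9 receptors over 8 libraries and for 6 of the 9 without PBS replicate 4, while over all genes 8294 and 6103 of 12486 were positive.

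The remaining 7 tested receptors had overlapping groups. EGFR had a log2 fold change of -0.13 (SE 0.08) over 8 libraries and -0.15 (SE 0.08) without PBS replicate 4. ERBB2 had 0.22 (SE 0.14) and 0.10 (SE 0.10) in the same order, and MET had 0.13 (SE 0.10) and 0.05 (SE 0.07). The 95% intervals of these 3 receptors all included 0. DDR1 had 0.07 (SE 0.12) and 0.0060 (SE 0.10). AXL had 0.00078 (SE 0.08) and -0.04 (SE 0.07), FGFR1 had -0.01 (SE 0.11) and 0.08 (SE 0.08), and IGF1R had 0.04 (SE 0.23) and -0.18 (SE 0.15). AXL, FGFR1 and IGF1R therefore changed sign when PBS replicate 4 was left out.

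**Figure D2:**
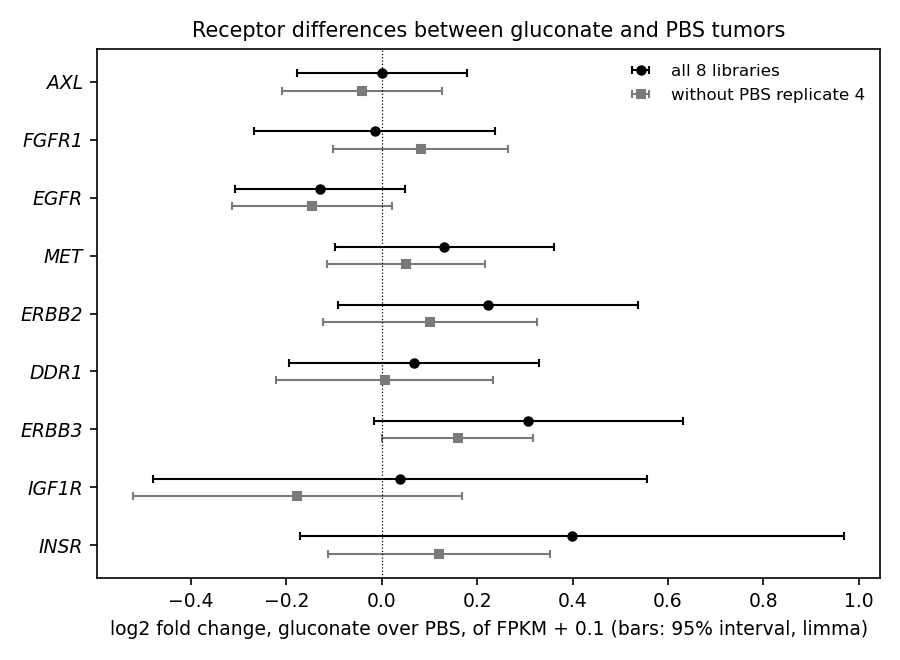
Log2 fold change of gluconate over PBS tumors for the 9 receptors tested, on the FPKM + 0.1 scale, with 95% intervals from limma, over 8 libraries (black) and without PBS replicate 4 (grey). All intervals include 0 except that of ERBB3 without PBS replicate 4, which begins at 0.0012.

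PBS replicate 4 differed from the other PBS tumors to an unequal degree between receptors. Its level over the mean of the other PBS tumors was 0.431 for INSR, 0.534 for IGF1R, 0.657 for ERBB3 and 0.709 for ERBB2. FGFR1 stood at 1.30 and FGFR2 at 26.2 by the same ratio. PBS replicate 4 was the lowest of 8 libraries for 7 receptors and the highest for 2, FGFR1 and FGFR2. Over all genes tested it was the lowest in 58.0% and the highest in 13.7%. The median log2 difference of PBS replicate 4 from the mean of the other PBS tumors was -0.32 over the receptors tested and -0.28 over all genes tested. The part of its lower depth in these values was not tested.

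**Figure D3:**
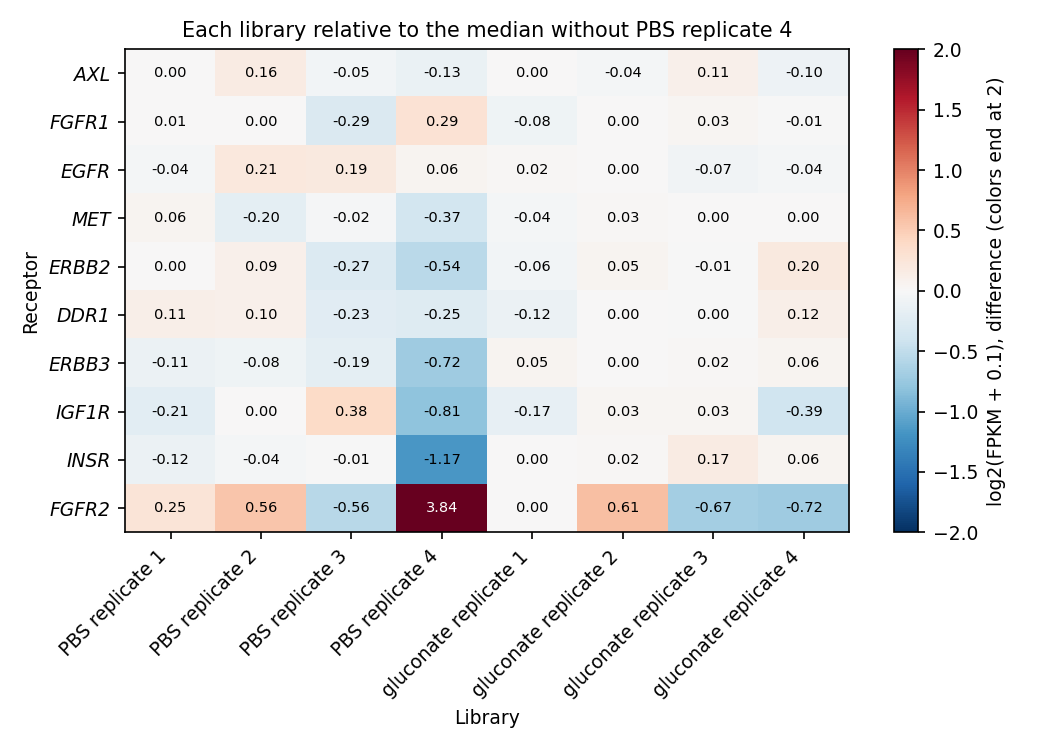
Each cell gives log2(FPKM + 0.1) of a receptor in a library minus the median of the 7 libraries other than PBS replicate 4, with colors ending at 2 in size. The column of PBS replicate 4 is low for INSR, IGF1R and ERBB3 and high for FGFR2.

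The order of the receptors was largely the same in each library. AXL lay above FGFR1, FGFR1 above EGFR, EGFR above MET, ERBB2 above DDR1 and IGF1R above INSR in 8 of 8 libraries. MET lay above ERBB2 in 7 of 8, with PBS replicate 2 as the exception. DDR1 lay above ERBB3 in 7 of 8, gluconate replicate 1 being the exception, and ERBB3 above IGF1R in 7 of 8, PBS replicate 3 being the exception. Within a library, MET over ERBB2 ranged from 0.976 to 1.42, DDR1 over ERBB3 from 0.965 to 1.51 and ERBB3 over IGF1R from 0.949 to 1.95. INSR lay above FGFR2 in all libraries but PBS replicate 4. Over the 7 other libraries, the highest level divided by the lowest was 1.19 for AXL, MET and ERBB3, 1.72 for IGF1R and 57.9 for FGFR2.

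Ratios between receptors of a library do not depend on its scaling, and are given as values only. EGFR over ERBB3 was 3.46, 4.03, 4.28 and 5.68 in PBS replicates 1 to 4 and 3.20, 3.29, 3.09 and 3.05 in gluconate replicates 1 to 4. Each gluconate tumor lay below each PBS tumor in this ratio, the 1 of 18 ratios, shares and sums computed in which the groups did not overlap. IGF1R over INSR was 2.34, 2.58, 3.30 and 3.41 in PBS tumors and 2.22, 2.52, 2.27 and 1.81 in gluconate tumors, and the groups overlapped. AXL over FGFR1 was 3.26 in PBS replicate 4 and 4.11 to 5.17 in the others.

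Of 9 other receptors of the same families, 6 were tested and 0 had an unadjusted p under 0.05, with or without PBS replicate 4. Among all genes tested the share was 4.62%, and 6.18% without PBS replicate 4. The count of these receptors was 1 without PBS replicate 3, where 504 of all 12486 genes were counted. The median log2 fold change of these 6 receptors was 0.12, and -0.02 without PBS replicate 4. FGFR4, an FGF receptor, was the most abundant, at 14.4, 14.8, 19.9 and 16.4 FPKM in PBS tumors and 14.8, 14.1, 14.7 and 14.9 FPKM in gluconate tumors. FGFR3 measured 2.20, 2.08, 3.10 and 1.19 FPKM in PBS tumors and 2.51, 2.72, 2.74 and 2.70 FPKM in gluconate tumors. ERBB4 was at most 0.0158 FPKM in any library.

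The relatives of AXL, DDR1 and MET were picked for mention after their values were seen. MERTK, a TAM receptor like AXL, was 1.52 FPKM in PBS replicate 4, against 2.56 to 3.88 FPKM in the others, and TYRO3 lay between 0.510 and 1.03 FPKM. AXL over MERTK was 115 in PBS replicate 4 and 47.6 to 69.9 in the other libraries. DDR2, the collagen receptor of mesenchymal cells, was 1.47 FPKM in PBS replicate 4, against 0.144 to 0.229 FPKM in the others. MST1R, the receptor related to MET, lay between 2.29 and 4.17 FPKM.

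Among 142 genes of the lists of relatives, ligands, regulators and markers, 141 were in the table and 102 were tested. At an unadjusted p under 0.05, 5 were higher and 4 lower in gluconate tumors, against 4.62% of all genes in either direction. Without PBS replicate 4 these counts were 4 and 6, against 6.18% of all genes. The adjusted p from limma was under 0.05 for 0 of them. Groups did not overlap for 2 higher and 2 lower genes of the 102, against 3.49% of all genes tested. Without PBS replicate 4 these were 2 and 5, against 6.06%. The median log2 fold change of the 102 genes was 0.06 over 8 libraries and -0.02 without PBS replicate 4.

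Ligands of the ERBB receptors numbered 11, of which 5 were tested. Over 8 libraries 0 had an unadjusted p under 0.05, while without PBS replicate 4 there was 1, AREG. The shares of all genes tested were 4.62% and 6.18% in the same order. HBEGF, which binds EGFR, had the highest level, at 9.37, 11.5, 16.7 and 8.47 FPKM in PBS tumors and 7.20, 10.7, 10.0 and 9.83 FPKM in gluconate tumors. AREG, another EGFR ligand, measured 1.88, 1.93, 3.51 and 0.410 FPKM in PBS tumors and 1.41, 1.46, 1.36 and 1.40 FPKM in gluconate tumors. The gluconate tumors lay below PBS replicates 1 to 3 and above PBS replicate 4, which held 2 fragments. AREG had a log2 fold change of -0.13 (SE 0.49) over 8 libraries and -0.70 (SE 0.20) without PBS replicate 4, with an adjusted p of 0.802 from limma in the latter. The exact permutation test of AREG without that library gave p = 0.0286.

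BTC, which binds EGFR and ERBB4, measured 0.0591 FPKM, resting on 1 fragment, in PBS replicate 4 and 0.345 to 0.858 FPKM elsewhere. Its log2 fold change was 0.66 over 8 libraries and 0.14 without PBS replicate 4. NRG1, a ligand of ERBB3, ranged from 1.37 to 2.12 FPKM, TGFA from 0.924 to 1.77 FPKM and EGF from 0.147 to 0.551 FPKM.

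Of the ligands of MET and AXL, HGF was at most 0.0678 FPKM in any library. GAS6, the ligand of AXL, measured 37.6, 40.0, 25.4 and 22.2 FPKM in PBS tumors and 36.1, 34.0, 48.5 and 56.3 FPKM in gluconate tumors. The groups overlapped, and the log2 fold change was 0.50 (SE 0.22), or 0.35 without PBS replicate 4. PROS1, which also binds TAM receptors, measured 10.3, 9.25, 7.41 and 9.12 FPKM in PBS tumors and 10.7, 10.3, 10.4 and 11.8 FPKM in gluconate tumors. The estimate on the log2 scale was 0.26 (SE 0.11), at an unadjusted p under 0.05, with an adjusted p of 0.740 from limma. PROS1 was the 1 counted of 2 ligands of MET and AXL tested, where 3.13% of all genes tested were counted as higher. This call ended without PBS replicate 2 (log2 fold change 0.28) or 3 (0.17). It also ended without gluconate replicate 1 (0.27), 2 (0.28), 3 (0.28) or 4 (0.22). The same held with scaling by median ratios (0.20) or quantile normalization (0.22). The exact permutation test of PROS1 gave p = 0.0571 both with and without PBS replicate 4.

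Of 8 FGF receptor ligands, 4 were tested, and 1 was higher (FGF2) and 1 lower (FGF5) at an unadjusted p under 0.05. These counts were 0 and 1 without PBS replicate 4. Of all genes tested, 3.13% were higher and 1.49% lower, or 2.83% and 3.36% without PBS replicate 4. FGF2 measured 16.9, 9.87, 6.75 and 6.31 FPKM in PBS tumors and 13.5, 11.7, 15.1 and 20.1 FPKM in gluconate tumors. The groups overlapped because of PBS replicate 1, and the log2 fold change was 0.68 (SE 0.30), or 0.50 (SE 0.28) without PBS replicate 4. The call of FGF2 ended with each library left out except PBS replicate 1 and gluconate replicate 2, with values of 0.50 to 0.72. FGF5 measured 2.82, 3.47, 9.07 and 3.42 FPKM in PBS tumors and 1.78, 1.82, 2.85 and 1.58 FPKM in gluconate tumors. PBS replicate 3 was far above the rest, and gluconate replicate 3 was just above PBS replicate 1. FGF5 had a log2 fold change of -1.06 (SE 0.34) over 8 libraries, -1.15 (SE 0.35) without PBS replicate 4 and -0.69 without PBS replicate 3. The exact permutation test of FGF5 gave p = 0.0571, and p = 0.0857 without PBS replicate 4. FGF1 lay between 0.463 and 1.24 FPKM and FGF18 between 0.464 and 1.01 FPKM.

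IGF2, a ligand of IGF1R and INSR, measured 9.03, 12.1, 5.81 and 2.07 FPKM in PBS tumors and 10.1, 8.96, 9.70 and 7.77 FPKM in gluconate tumors. The estimate on the log2 scale was 0.58 (SE 0.45), and 0.08 without PBS replicate 4. IGF1 was 2.85 FPKM in PBS replicate 4, against 0.0489 to 0.285 FPKM in the others. INS was listed at 0 in 7 of 8 libraries.

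Of 8 genes listed as IGF binding proteins, IGF2R included, 6 were tested, and 1 was lower at an unadjusted p under 0.05. Of all genes tested, 1.49% were lower. IGFBP1 measured 0.739, 1.01, 0.877 and 1.17 FPKM in PBS tumors and 0.573, 0.293, 0.420 and 0.834 FPKM in gluconate tumors. The groups overlapped through gluconate replicate 4, and the log2 fold change was -0.79 (SE 0.29), or -0.69 without PBS replicate 4. Its call ended without PBS replicate 2 (-0.76), gluconate replicate 2 (-0.59) or gluconate replicate 3 (-0.72). The count in this list was 0 without gluconate replicate 3 and 2 without PBS replicate 3. Of all 12486 genes, 289 and 504 were counted in the same order. IGFBP4 was the most abundant, at 101 to 129 FPKM in PBS tumors and 107 to 219 FPKM in gluconate tumors. IGFBP3 lay between 19.4 and 51.7 FPKM. IGFBP7, picked after its values were seen, was 24.8 FPKM in PBS replicate 4, against 0.734 to 3.27 FPKM in the others.

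Of 5 collagen ligands of DDR1, 4 were tested and 0 had an unadjusted p under 0.05, against 4.62% of all genes tested. The count of these collagens was 1 without PBS replicate 1, where 1214 of all 12486 genes were counted. COL1A1 measured 121, 176, 140 and 41.4 FPKM in PBS tumors and 155, 169, 182 and 174 FPKM in gluconate tumors. The estimate on the log2 scale was 0.69 (SE 0.37) over 8 libraries and 0.24 without PBS replicate 4, so that most of the difference came with that library. COL1A2 was at most 0.0678 FPKM. COL3A1 lay between 0.230 and 2.25 FPKM, COL4A1 between 0.204 and 1.24 FPKM and COL4A2 between 0.778 and 5.03 FPKM.

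**Figure D4:**
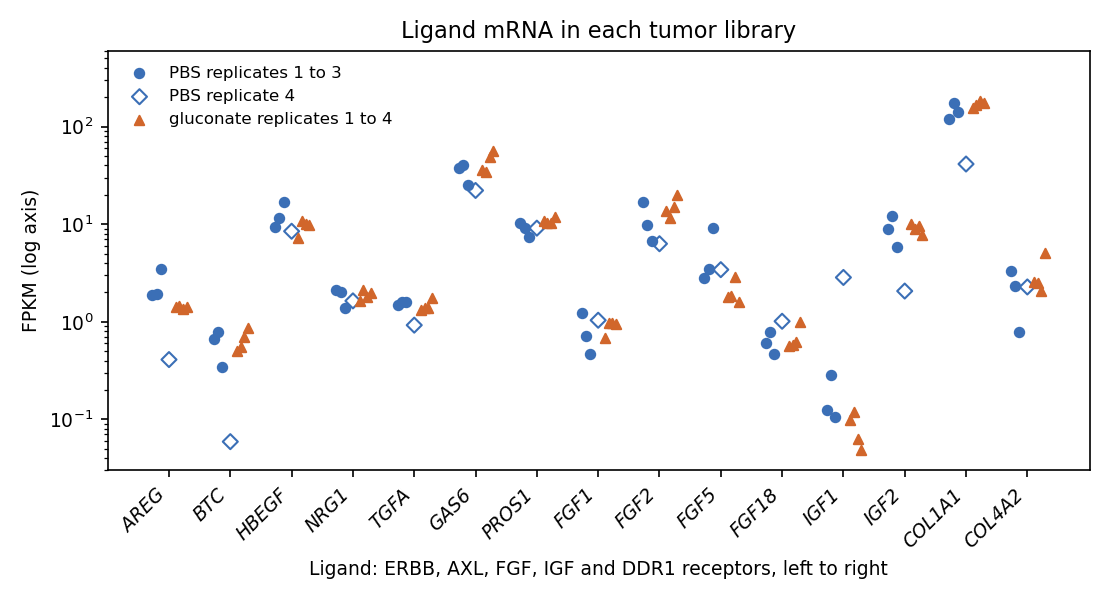
FPKM (log axis) of 15 ligands in each of the 8 libraries, with circles for PBS replicates 1 to 3, open diamonds for PBS replicate 4 and triangles for the gluconate tumors. COL1A1 and GAS6 lie highest, and PBS replicate 4 lies apart for AREG, BTC, IGF1, IGF2 and COL1A1.

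Ligand release depends on proteases and their inhibitors, of which 6 were listed and 4 tested. At an unadjusted p under 0.05 there were 0, against 4.62% of all genes tested. SPINT2, an inhibitor of the protease that activates HGF, lay between 117 and 172 FPKM. ADAM17, which sheds EGFR ligands, measured 13.0, 12.3, 12.6 and 7.01 FPKM in PBS tumors and 13.0, 13.5, 14.2 and 13.4 FPKM in gluconate tumors. The estimate on the log2 scale was 0.31 over 8 libraries and 0.10 without PBS replicate 4.

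Of 17 adaptors, 16 were tested. At an unadjusted p under 0.05, 1 was higher and 1 lower, with and without PBS replicate 4. The shares of all genes tested were 3.13% higher and 1.49% lower, or 2.83% and 3.36% without PBS replicate 4. GRB14, which binds and inhibits INSR, measured 0.848, 1.07, 1.41 and 1.54 FPKM in PBS tumors and 0.774, 0.652, 0.815 and 0.581 FPKM in gluconate tumors. Each gluconate tumor lay below each PBS tumor, as for 1.41% of all genes tested, or 3.65% without PBS replicate 4. GRB14 had a log2 fold change of -0.69 (SE 0.22) over 8 libraries and -0.57 (SE 0.20) without PBS replicate 4, and the exact permutation test gave p = 0.0286 in both. GRB10, a related adaptor of INSR and IGF1R, measured 2.61, 2.05, 1.52 and 2.15 FPKM in PBS tumors and 2.50, 3.08, 2.44 and 3.92 FPKM in gluconate tumors. The groups overlapped, with a log2 fold change of 0.50 (SE 0.20), or 0.52 (SE 0.20) without PBS replicate 4. The call of GRB10 ended without PBS replicate 2 (0.50), PBS replicate 3 (0.36), gluconate replicate 2 (0.48) or gluconate replicate 4 (0.36). It also ended with scaling by median ratios (0.43) or quantile normalization (0.41). CRK was 101 FPKM in PBS replicate 4, against 59.1 to 67.7 FPKM in the others. The median of the adaptors was 0.05, and -0.04 without PBS replicate 4.

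The RAS, MAPK and PI3K cascade held 19 genes, of which 18 were tested. Over 8 libraries 0 had an unadjusted p under 0.05, while without PBS replicate 4 there was 1, NRAS. The shares of all genes tested were 4.62% and 6.18% in the same order. The median log2 fold change of the cascade was 0.0020, and -0.03 without PBS replicate 4. MAP2K2 had the highest mean, at 47.6 to 56.9 FPKM, and AKT1 had a log2 fold change of 0.14, or 0.08 without PBS replicate 4. NRAS, picked after its values were seen, measured 42.9, 43.4, 43.6 and 33.0 FPKM in PBS tumors and 38.6, 37.9, 35.8 and 34.4 FPKM in gluconate tumors. PBS replicate 4 lay below all gluconate tumors and PBS replicates 1 to 3 above them. Without that library the log2 fold change of NRAS was -0.24 (SE 0.06), with an adjusted p of 0.802 from limma, and over 8 libraries it was -0.14.

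Of 16 inhibitors of receptors and MAPK, 15 were tested and 0 had an unadjusted p under 0.05, against 4.62% of all genes tested. DUSP5, a phosphatase of ERK, was the most abundant, at 62.8 FPKM in PBS replicate 3, against 26.7 to 36.3 FPKM in the others. RNF41, a ubiquitin ligase that lowers ERBB3 protein, measured 12.7, 12.3, 12.4 and 10.1 FPKM in PBS tumors and 13.3, 13.1, 12.9 and 14.1 FPKM in gluconate tumors. The groups of RNF41 did not overlap, as for 2.08% of all genes tested in this direction, or 2.41% without PBS replicate 4. Its log2 fold change was 0.17 (SE 0.09), with an exact permutation p of 0.0286, and 0.10 (SE 0.06) without PBS replicate 4, with an exact permutation p of 0.0571. ERRFI1, an inhibitor of EGFR, was 44.5 FPKM in PBS replicate 3, against 24.3 to 31.6 FPKM in the others.

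All 9 genes listed as responding to ERK were tested. At an unadjusted p under 0.05, 1 was higher and 1 lower, with and without PBS replicate 4. Of all genes tested, 3.13% were higher and 1.49% lower, or 2.83% and 3.36% without PBS replicate 4. EGR1, an immediate early transcription factor, measured 4.36, 4.68, 2.64 and 4.11 FPKM in PBS tumors and 5.86, 6.04, 6.11 and 5.15 FPKM in gluconate tumors. Each gluconate tumor lay above each PBS tumor, as for 2.08% of all genes tested, or 2.41% without PBS replicate 4. EGR1 had a log2 fold change of 0.57 (SE 0.17) over 8 libraries and 0.60 (SE 0.17) without PBS replicate 4, and the exact permutation test gave p = 0.0286 in both. PHLDA1 measured 7.15, 6.89, 10.1 and 13.2 FPKM in PBS tumors and 6.50, 4.75, 6.04 and 5.56 FPKM in gluconate tumors. Each gluconate tumor lay below each PBS tumor for PHLDA1, as for 1.41% of all genes tested, or 3.65% without PBS replicate 4. Its log2 fold change was -0.66 (SE 0.21), or -0.47 (SE 0.15) without PBS replicate 4, with an exact permutation p of 0.0286 in both. FOSL1, the most abundant of these genes, was 281 FPKM in PBS replicate 4, against 134 to 192 FPKM in the others.

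**Figure D5:**
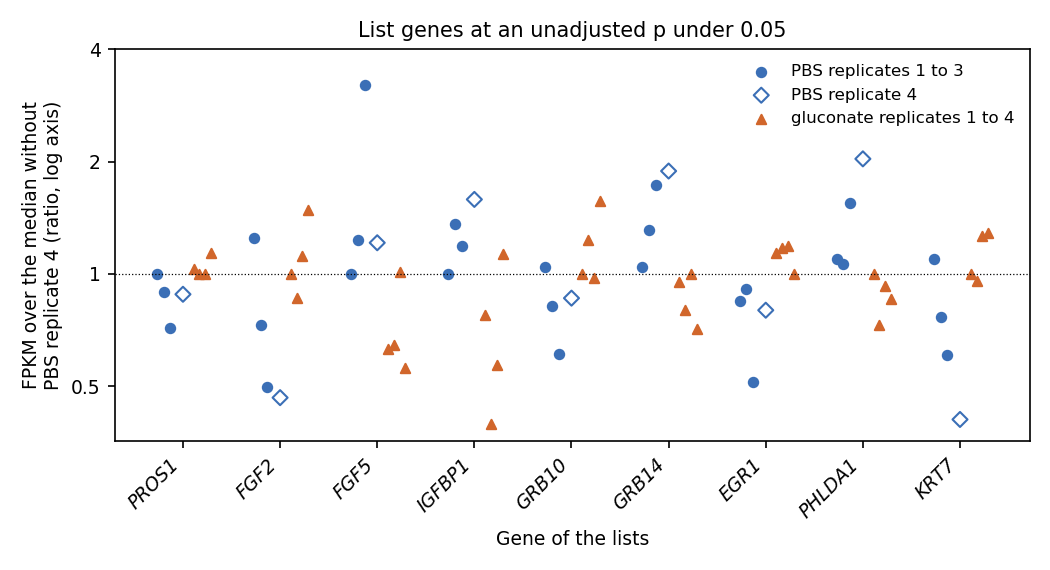
FPKM of the 9 list genes at an unadjusted p under 0.05, divided by the median of the 7 libraries other than PBS replicate 4 (log axis), with circles for PBS replicates 1 to 3, open diamonds for PBS replicate 4 and triangles for gluconate tumors. The groups do not overlap for GRB14, EGR1 and PHLDA1, and they overlap for the others.

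The tumors carried the markers of an epithelial carcinoma, though not all of them. Of 9 epithelial markers, 6 reached 0.5 FPKM in each library, and their summed level was 1864 FPKM in PBS replicate 4, against 1567 to 2297 FPKM in the others. KRT8 led the list at 700 to 1051 FPKM, and PAX8, a transcription factor of the Müllerian lineage, lay between 32.4 and 50.7 FPKM. KRT19, CDH1 and MUC16 were listed at 0 in PBS replicate 4 and lay near 0 elsewhere. KRT7 measured 335, 234, 185 and 124 FPKM in PBS tumors and 306, 293, 387 and 393 FPKM in gluconate tumors, at an unadjusted p under 0.05, with a log2 fold change of 0.73 (SE 0.26), or 0.48 (SE 0.19) without PBS replicate 4. KRT7 was the 1 marker counted of 6 tested, where 3.13% of all genes tested were counted as higher. The call of KRT7 ended without gluconate replicate 3 (0.67) or gluconate replicate 4 (0.66). The markers then counted 0, where 289 and 267 of all 12486 genes tested were counted. Without PBS replicate 1 the markers counted 3, where 1214 of all genes were counted. The more abundant KRT8 had a log2 fold change of -0.20 (SE 0.11), or -0.21 without PBS replicate 4. KRT18, at 513 to 987 FPKM, had -0.33 (SE 0.17), or -0.31 without PBS replicate 4. Both were smallest in size without PBS replicate 3 (-0.125 for KRT8 and -0.21 for KRT18). They were largest in size without PBS replicate 1 (-0.289 and -0.50). Of the 6 epithelial markers tested, 3 had positive and 3 negative values, with a median of -0.07, or -0.14 without PBS replicate 4. WT1, picked after its values were seen, was 6.58 FPKM in PBS replicate 4, against 1.07 to 1.82 FPKM in the others.

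Markers of fibroblasts, vessels and leukocytes, read as human genes, summed to less than those of epithelium in each library. The host was mouse, the values rest on the human genome, and how mouse reads were handled was not given. These sums therefore do not measure how many host cells the tumors held. The 7 fibroblast and pericyte markers summed to 4.03 FPKM in PBS replicate 4, while the others held sums of 8.30 to 11.8 FPKM. LUM had the highest mean, but PDGFRB lay above it in PBS replicate 2 and gluconate replicates 2 and 3. PDGFRA was at 0 in 4 libraries. FAP, another of these markers, had a log2 fold change of 0.70 (SE 0.36), or 0.42 (SE 0.29) without PBS replicate 4. Of 6 endothelial markers, 5 were in the table. They summed to 0.257 FPKM in PBS replicate 4, against 0.444 to 0.707 FPKM in the others. PECAM1 had the highest mean, but in PBS replicate 4 TEK lay above it (0.159 against 0.0688 FPKM). CDH5 was at 0 in all PBS tumors and at 0.0057 to 0.0301 FPKM, on 1 to 5 fragments, in gluconate tumors. The 6 leukocyte markers summed to 27.1 FPKM in PBS replicate 4, against 20.8 to 28.9 FPKM in the others. CD68, at 19.7 to 28.1 FPKM a level near that of EGFR, made up nearly all of this sum, and without it the sum was 1.43 FPKM in PBS replicate 4 and 0.743 to 1.04 FPKM elsewhere, with PTPRC, LYZ and CD14 at 0 in PBS replicate 4. The part of these markers and of depth in the values of the receptors was not tested.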

How the data were processed

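The authors deposited FPKM values of 24196 genes in 8 tumor libraries, made from poly(A) RNA and GRCh38 per the labels. Fragments behind each value were recovered from the steps of the FPKM values, and were whole in 100% of genes in every library at a tolerance of 1e-05. Groups were compared with limma 3.58.1 in R 4.3.3, with a trend, on log2(FPKM + 0.1), over genes averaging at least 0.5 FPKM, with Benjamini-Hochberg adjustment. Exact permutation tests were two-sided. Fold changes on this scale understate those of low genes. Other steps used Python 3.11.15, numpy 2.4.6, scipy 1.17.1, pandas 2.3.3 and matplotlib 3.10.9, and gene positions come from GENCODE 29. The limma script was tested on simulated data.

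Beside the receptors, the text names of each list the gene with the highest mean, those with the lowest p in each direction and those past p and fold, with known ligands. DDR2, MERTK, TYRO3, MST1R, IGFBP3, IGFBP7, WT1 and NRAS were chosen after their values were seen, as were ERBB4 and the markers PAX8, KRT19, CDH1, MUC16, PDGFRA, CDH5, PTPRC, LYZ and CD14, given for their levels. The values of 1 gene that the rule picked are not reported here. The members and lists were chosen with earlier results of these data known. Alternatives were other pseudocounts, filters and scalings, limma voom on recovered fragments, an unmoderated model, the replicate number as a block, and each library left out. Reads of a gene and of genes overlapping it cannot be told apart without strand.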

Additional observations from a re-analysis of the deposited data

Results flagged for a closer look

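In each group of 4, the highest or lowest library was set against the other 3, and it was listed where its gap to the nearest, as a share of the whole range, passed Dixon's 95% critical value. Of 122 groups examined, over 59 genes, depth and genes above 0, 24 were listed. Chance flags about 1 in 20 groups, but some of the genes were chosen after their values were seen, so the tally cannot be read against that rate. PBS replicate 4 was the library in 15 of them, and 2 were receptors.

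In PBS replicate 4, the depth was 3953206 fragments and 15514 genes lay above 0. Of the receptors, FGFR2 was 2.31 FPKM there, against 0.0145 to 0.149 FPKM in the other PBS tumors, and INSR was 0.748 FPKM, against 1.66 to 1.79 FPKM. High values in that library were 101 FPKM for CRK, 2.85 FPKM for IGF1, 1.47 FPKM for DDR2, 24.8 FPKM for IGFBP7 and 6.58 FPKM for WT1. Low values were 7.01 FPKM for ADAM17, 10.1 FPKM for RNF41, 0.0688 FPKM for PECAM1, 0.924 FPKM for TGFA, 1.52 FPKM for MERTK and 33.0 FPKM for NRAS. In PBS replicate 3, FGF5 was 9.07 FPKM, against 2.82 to 3.47 FPKM in the other PBS tumors.

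Among gluconate tumors, replicate 4 was high at 48.7 FPKM for AKT1, 1.77 FPKM for TGFA, 0.995 FPKM for FGF18, 5.03 FPKM for COL4A2 and 4.17 FPKM for MST1R. Gluconate replicate 1 was low at 2.51 FPKM for FGFR3 and 0.686 FPKM for FGF1, and gluconate replicate 2 was low at 14.1 FPKM for FGFR4.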

How the results depend on the processing

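No gene had an adjusted p under 0.05 under any alternative run, by limma, limma voom or the unmoderated model. The count of receptors at an unadjusted p under 0.05 was 0 over 8 libraries, 2 with scaling by median ratios (EGFR and ERBB3), 1 with quantile normalization (ERBB3), 1 by limma voom without PBS replicate 4 (an alternative chosen after seeing the data), and 0 to 1 with each library left out. For all genes this count was 577, against 1028 with no filter and 267 to 1214 with each library left out. It was 708 with scaling by median ratios, 783 with quantile normalization, 593 by limma voom and 489 by the unmoderated model. With a change of 1 or more in size on the log2 scale as well, it was 37, against 8 with a pseudocount of 1, 77 with no filter, 16 by limma voom, 16 by the unmoderated model, 15 by limma voom without PBS replicate 4, and 11 to 90 with each library left out. Genes whose groups did not overlap numbered 436, against 691 with no filter and 616 to 1418 with each library left out.

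Higher genes made up 67.8% of those at an unadjusted p under 0.05. This share was 50.8% with scaling by median ratios, 54.9% with quantile normalization and 56.7% by limma voom. It was 45.7% without PBS replicate 4, and 41.5% by limma voom without that library. Larger shares were 76.5% without PBS replicate 1, 76.3% without PBS replicate 2 and 72.7% with no filter. The scaling factor of PBS replicate 4 was 0.853, against 1.00 to 1.05 in the others, and its median log2 level was 2.51, against 2.72 to 2.81.

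Log2 fold changes turned as follows. AXL was -0.065 with median ratios, -0.026 with quantile normalization, -0.0095 by limma voom, -0.041 by limma voom without PBS replicate 4, and -0.042 to 0.056 with each library left out. FGFR1 was 0.018 by limma voom, 0.082 by limma voom without PBS replicate 4, and -0.11 to 0.081 with each library left out. IGF1R was -0.026 with median ratios, -0.042 with quantile normalization, -0.11 by limma voom, -0.18 by limma voom without PBS replicate 4, and -0.18 to 0.22 with each library left out. SPINT2 was -0.024 with median ratios, -0.0027 by limma voom, -0.065 by limma voom without PBS replicate 4, and -0.065 to 0.12 with each library left out.

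With quantile normalization, the value was -0.012 for NRG1, -0.015 for TGFA, -0.0012 for FGF1, -0.026 for MERTK and -0.0099 for TYRO3. By limma voom it was -0.044 for TGFA, 0.077 for FGF18 and -0.16 for MERTK. By limma voom without PBS replicate 4 it was -0.095 for TGFA, 0.14 for FGF18, -0.042 for COL3A1, -0.25 for MERTK, -0.040 for TYRO3 and -0.00092 for MST1R. With each library left out, the range was -0.049 to 0.036 for MAP2K2, -0.70 to 0.24 for AREG, -0.027 to 0.17 for NRG1, -0.092 to 0.16 for TGFA, -0.12 to 0.30 for FGF1, -0.20 to 0.13 for FGF18, -0.037 to 0.91 for COL3A1, -0.24 to 0.19 for MERTK, -0.030 to 0.27 for TYRO3 and -0.046 to 0.24 for MST1R. The cause of these turns was not tested. The calls of PROS1, FGF2, GRB10 and KRT7 also ended with the unmoderated model, and those of PROS1 and FGF2 with the replicate block. That of FGF2 ended with no filter (log2 fold change 0.68), median ratios (0.62) and limma voom (0.56) as well. The other log2 fold changes that were recomputed, those of 7 receptors and of the list genes whose fold change is given, kept their sign under each alternative run.

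With the replicate number as a replicate block, 470 genes had an unadjusted p under 0.05 and 0 of them were receptors. Deviations of same-numbered libraries correlated across 12486 genes at r = -0.178, 0.0836, 0.166 and -0.0575 for replicates 1 to 4, and only PBS replicates 2 and 3 correlated best with their own number. The numbers were therefore not taken to pair the tumors. The 93 fragments of ERBB3 and 28 of INSR in PBS replicate 4 limit the precision of these receptors there.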
